A study of Mus musculus with 6 samples.

Results

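The 4 microRNAs (miRNAs) described here are the guide strands miR-99b, miR-99a and miR-100, which form the miR-99/100 family, and miR-99b*, the passenger strand of the miR-99b precursor. They were taken by name from the normalized table, which names 707 miRNA assays, and the same wells were read in the table of raw threshold cycles (Ct). All 4 had a Ct in all 6 samples, as did 103 miRNAs in all. The samples are osteoclasts of mouse bone marrow, sorted with magnetic beads for the receptors OSCAR and CTR, taken 2 weeks after surgery: in ACLT (3 samples) the anterior cruciate ligament was cut, which destabilises the knee, and Sham (3 samples) had sham surgery. The series text states that RNA of 3 mice per group was pooled in equal amounts. The sources used here say neither whether the 3 samples are single animals or replicate runs of that pool, nor the strain, age or sex. The p-values therefore cover the spread among the samples as deposited, which may be technical.

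miRNAs guide the Argonaute complex to messenger RNAs that pair with the seed, bases 2 to 8 of the mature strand. A precursor hairpin gives 2 arms, of which the guide is loaded and kept, while the passenger (marked with a star in the older naming) is mostly degraded. The miR-99/100 family is known to repress Mtor, the kinase of nutrient signalling, and Igf1r, the receptor of insulin-like growth factor 1. Each of its genes lies beside a let-7 gene and a miR-125 gene.

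The mature sequences are shown to separate the seed family from the passenger arm, with the seed in capitals. The first 4 are those of the deposited table and matched the RefSeq mature miRNAs exactly; the last was read from RefSeq (GRCm38.p6), and no assay for it is named in the table.
miR-99b: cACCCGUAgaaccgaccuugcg
miR-99a: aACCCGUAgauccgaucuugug
miR-100: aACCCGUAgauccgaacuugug
miR-99b*: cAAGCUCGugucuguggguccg
miR-99a-3p: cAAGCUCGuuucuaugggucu

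The 3 guide strands share the seed ACCCGUA, which no other miRNA of the panel has. Counted from 1 at the 5′ end, miR-99a and miR-100 differ at 1 of 22 bases, U16A, outside the seed. miR-99b differs from miR-99a at 4 bases, C1A, A11U, C16U and C21U, so its assay has more sequence to tell it apart. miR-99b* has another seed, AAGCUCG, shared among the mouse RefSeq miRNAs with miR-99a-3p alone. In GRCm38.p6, miR-99b lies at chr17:17830194-17830215 and miR-99b* at chr17:17830232-17830253, both on the plus strand within the span of the gene Spaca6. miR-99a lies at chr16:77598940-77598961 and miR-100 at chr9:41531437-41531458, both on the plus strand, the second within the span of the long non-coding RNA Mir100hg. Whether these positions are exonic or intronic was not analysed here.

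Before any comparison, 2 features of the Ct values touch all 4 members. The first is a tie between samples 2 and 3 within a group. In ACLT the Ct of sample 3 equalled that of sample 2 multiplied or divided by 0.99 in 77 of 110 wells with a Ct, within 0.002 cycles, and in Sham the factor was 0.97843, in 82 of 110 wells. Any of the 13 remaining sample pairs shared a factor in 2 to 4 wells. miR-99b, miR-99a and miR-100 were on the factor in both groups, as were 71 of 103 miRNAs. For miR-99b the Ct of 26.77 in ACLT sample 2 gives a predicted 26.502, and 26.502 is what sample 3 holds. In Sham sample 2 the Ct of 30.566 for miR-99a gives 29.907, again the value of sample 3. For these 3 miRNAs the third value therefore adds no separate measurement, and every SD and p below that rests on 3 samples a group counts it as one.

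miR-99b* was on the factor in Sham, where 33.3 divided by 0.97843 gives the 34.034 of sample 3, and off it in ACLT. Its ACLT sample 3 Ct of 34.919 equalled 0.99 times the ACLT sample 2 Ct of another well, that of miR-676* (35.272). The ACLT sample 3 value of miR-676* (35.045) equalled 0.99 times that of miR-872* (35.399), and the value of miR-872* (35.805) equalled 0.99 times that of miR-99b* (36.167). The 3 wells thus close a ring. The Sham sample 3 value of miR-99b* therefore adds no separate measurement either, and its ACLT sample 3 value equals a rescaled value of another well. Every SD and p below for miR-99b* counts both as separate where it rests on 3 samples a group. Of the 26 miRNAs off the factor in ACLT, 8 had such a match in another well, against 4 of 103 when ACLT sample 1 was searched in the same way. In Sham the counts were 3 of 22 and 9 of 103. This search was added after the values were seen.

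**Figure D1:**
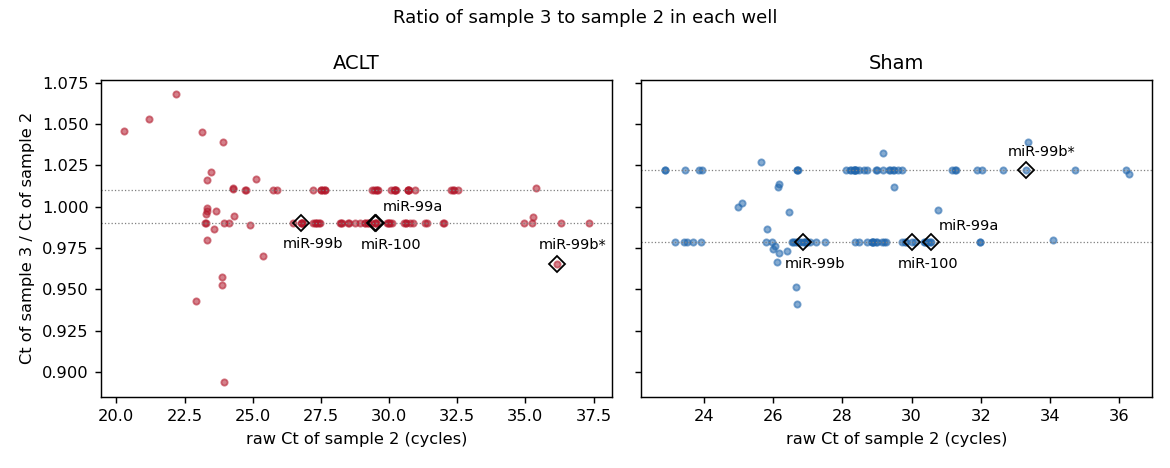
Ratio of the Ct of sample 3 to that of sample 2 (vertical axis) against the Ct of sample 2 in cycles (horizontal axis) for 103 miRNAs in ACLT (left) and Sham (right); dotted lines mark the factor and its reciprocal, and diamonds the 4 members. miR-99b, miR-99a and miR-100 lie on the lower line in both groups, and miR-99b* lies on the upper line in Sham and on neither line in ACLT.

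The second feature is an order along the plates. The panel places miRNAs roughly by their number, and Ct rose along that order in several bands. A run here is the longest set of wells, not necessarily adjacent, whose Ct increases along that order; several runs can be equally long. In ACLT sample 1 the longest run of wells with rising Ct held 49 of 103 miRNAs and the longest run with falling Ct held 9; in Sham sample 1 the lengths were 41 and 9. In the other 4 samples the rising runs held 29 to 32 miRNAs and the falling ones 8 to 11. miR-99b* was on a longest rising run in all 6 samples; in ACLT sample 1 it is the second of 6 passenger strands, from miR-22* to miR-872*, whose Ct rose from well to well (34.503, 34.524, 34.649, 35.402, 35.544 and 36.546). miR-99a and miR-100 were on such a run in the 3 ACLT samples, and miR-99b in all samples but ACLT sample 1. In ACLT samples 2 and 3 the run with miR-99b is another than that with miR-99a, since miR-99b follows miR-99a on the plate with a lower Ct. Each assay has 1 well, so a member's own level and its place on the plate cannot be told apart in these values.

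**Figure D2:**
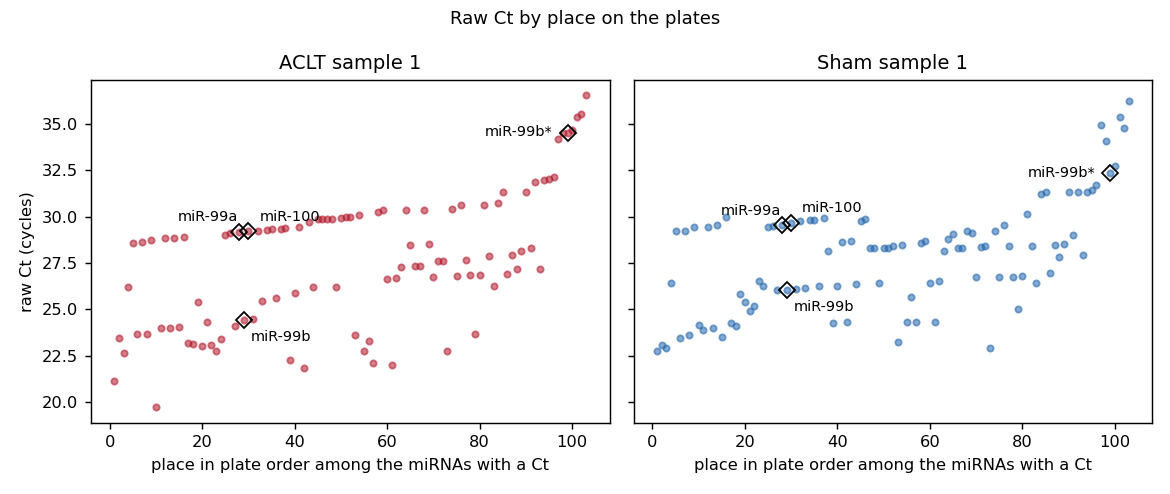
Raw Ct in cycles (vertical axis) of 103 miRNAs by their place in plate order (horizontal axis) in ACLT sample 1 (left) and Sham sample 1 (right), with the 4 members as diamonds. The points form rising bands, with miR-99a and miR-100 on an upper band, miR-99b on a lower one and miR-99b* near the end of plate 2.

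Among the guide strands, miR-99b had the lowest Ct, which is the most RNA. Its Ct was 24.4, 26.8 and 26.5 in ACLT samples 1 to 3, against 26.0, 26.9 and 26.3 in Sham samples 1 to 3. ACLT sample 1 stood apart from the other 5 samples, and the groups overlapped. miR-99a had a Ct of 29.2, 29.5 and 29.2 in ACLT, against 29.5, 30.6 and 29.9 in Sham, where each value was above each ACLT value by at least a small margin. miR-100 had a Ct of 29.2, 29.5 and 29.2 in ACLT, against 29.7, 30.0 and 29.4 in Sham, and its groups overlapped. By mean Ct, from lowest, miR-99b ranked 31st, miR-100 68th, miR-99a 76th and miR-99b* 97th among 103 miRNAs. Among the 4 members, miR-100 and miR-99a stand next to each other, and their Ct ranges overlapped in both groups. Their distances to miR-99b and to miR-99b* had the same sign in all 6 samples, with the caution that assays can differ in efficiency, for which the labels hold no value.

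miR-99b* gave the latest signal. Its Ct was 34.5, 36.2 and 34.9 in ACLT samples 1 to 3, against 32.3, 33.3 and 34.0 in Sham samples 1 to 3. All ACLT values were higher than all Sham values, so less RNA was read in ACLT.

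**Figure D3:**
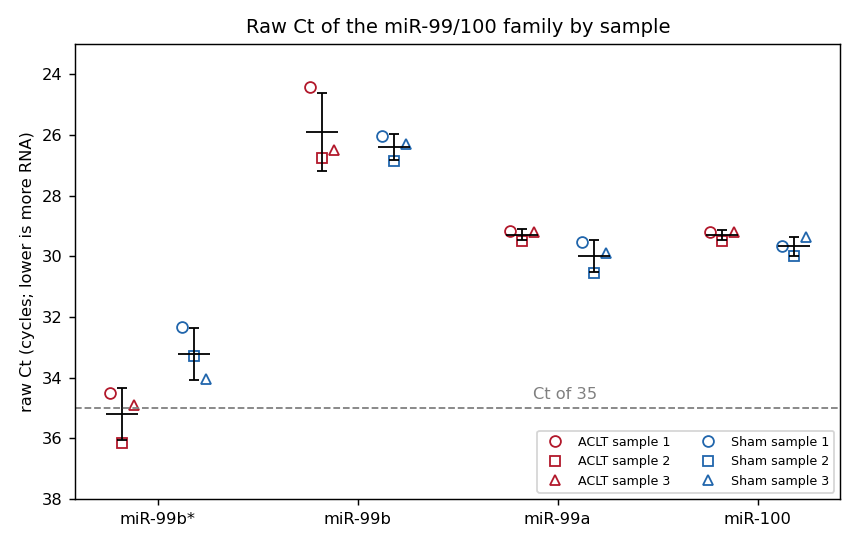
Raw Ct in cycles (vertical axis, inverted so that more RNA is higher) of the 4 members in 3 ACLT (red) and 3 Sham (blue) samples; symbols mark the sample number, bars the mean ± SD, and the dashed line a Ct of 35. miR-99b* lies at the line, from 32.3 to 36.2, and the 3 guide strands lie at least 4 cycles above it on the inverted axis.

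The amplification ran for 40 cycles, and a Ct of 35 was taken here as the limit of detection for the test. The guide strands were far from it. miR-99b lay 8.13 to 10.6 cycles under 35, miR-100 5.00 to 5.80 cycles and miR-99a 4.43 to 5.83 cycles. miR-99b* lay 0.476 cycles under the limit in ACLT sample 1 and 0.081 in ACLT sample 3, and 1.17 cycles over it in ACLT sample 2; in Sham it lay 2.65, 1.70 and 0.966 cycles under it. It was under 35 in 2 of 3 ACLT samples and in 3 of 3 Sham samples, and thus entered the test through its Sham values alone, the group where it was higher. With no filter on Ct, where entry does not depend on either group, its limma adjusted p was 0.0316, and with a limit of 35 in all 6 samples it was not tested. Of the 103 miRNAs, 6 had a Ct of 35 or more in some sample, and 5 of these 6, miR-99b* included, are among the 6 passenger strands with a Ct. The panel names 119 passenger strands; miR-22* was the sixth with a Ct, at a mean of 34.7 in ACLT and 34.0 in Sham.

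For the comparison of groups, levels are minus ΔCt, the Ct of the U6 well of the same sample and plate minus the Ct of the miRNA, so a higher level means more RNA, and a step of 1 is a doubling if the assay is fully efficient. The comparison asks whether ligament transection changes these miRNAs in osteoclasts. The other 3 members did not pass this test. miR-99b*, which entered it through its Sham values alone, was called lower in ACLT, and the call was lost in 11 of 19 alternatives. Its level was -8.84, -10.1 and -8.60 in ACLT samples 1 to 3, against -6.53, -6.47 and -8.09 in Sham samples 1 to 3. The groups did not overlap, as for 8 of the 100 tested miRNAs (8%) with ACLT lower. The ACLT mean was -9.17 ± 0.79 and the Sham mean -7.03 ± 0.92 (SD, n = 3 per group), a log2 change of -2.14 ± 0.81 (SE; 95% interval -3.72 to -0.55), or 4.39-fold lower (limma over 100 miRNAs, adjusted p = 0.0444). Of the 100 miRNAs tested, 7 (7%) passed as lower and 20 (20%) passed in either direction. The call was lost without ACLT sample 1, 2 or 3 and without Sham sample 1 or 2, where the change lay between -1.69 and -2.42 with adjusted p from 0.0745 to 0.304 in limma. With samples 2 and 3 of each group averaged, because of their tie, it was -2.18 (limma adjusted p = 0.108), and with the replicate number as a block -2.14 (limma adjusted p = 0.161). With the Ct of 36.2 set to 35, it was -1.75 (limma adjusted p = 0.0976).

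The 3 guide strands had positive changes that did not pass. miR-99a had levels of -3.23, -3.36 and -2.33 in ACLT, against -4.18, -3.66 and -3.45 in Sham; the groups did not overlap, as for 26 of the 100 tested miRNAs (26%). Its change was 0.79 ± 0.59 (SE; 95% interval -0.38 to 1.95; limma adjusted p = 0.417). miR-99b had levels of 1.505, -0.64 and 0.36 in ACLT, against -0.70, 0.04 and 0.17 in Sham. ACLT sample 1 was the highest of the 6 and ACLT sample 2 the second lowest. The change was 0.58 ± 0.64 (95% interval -0.68 to 1.84; limma adjusted p = 0.590), and 0.03 without ACLT sample 1. miR-100 had levels of -3.26, -3.37 and -2.34 in ACLT, against -4.32, -3.10 and -2.90 in Sham, where sample 1 was the lowest of the 6. Its change was 0.45 ± 0.59 (95% interval -0.72 to 1.61; limma adjusted p = 0.627), and 0.01 without Sham sample 1. The median change over the 100 tested miRNAs was 0.24, and each interval includes both 0 and this median. The authors' deposited table gives ACLT over Sham ratios of 0.228 for miR-99b*, 1.49 for miR-99b, 1.73 for miR-99a and 1.36 for miR-100, which come from the same ΔCt means.

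The direction of the guide strands depended on the normalizer. With reference 3, an unnamed assay on both plates, all 3 were lower in ACLT and passed (miR-99b -2.16, miR-99a -1.95, miR-100 -2.29), and with the mean of the 3 references they stood at -0.55, -0.34 and -0.68 without passing, whereas centring on the median miRNA gave 0.35, 0.56 and 0.22. After quantile normalization miR-99a passed as higher (1.13, limma adjusted p = 0.0234). Reference 3 itself differed by -2.66 cycles between ACLT and Sham on plate 1 and by -2.87 cycles on plate 2 (exact permutation p = 0.1 each, two-sided, the smallest that 3 against 3 can give), and with it the median over all tested miRNAs was -2.50. U6 differed by 0.077 cycles on plate 1 and -0.16 cycles on plate 2. miR-99b* stayed negative under every normalizer run, from -0.70 after quantile normalization (limma adjusted p = 0.246) to -4.85 with reference 3.

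**Figure D4:**
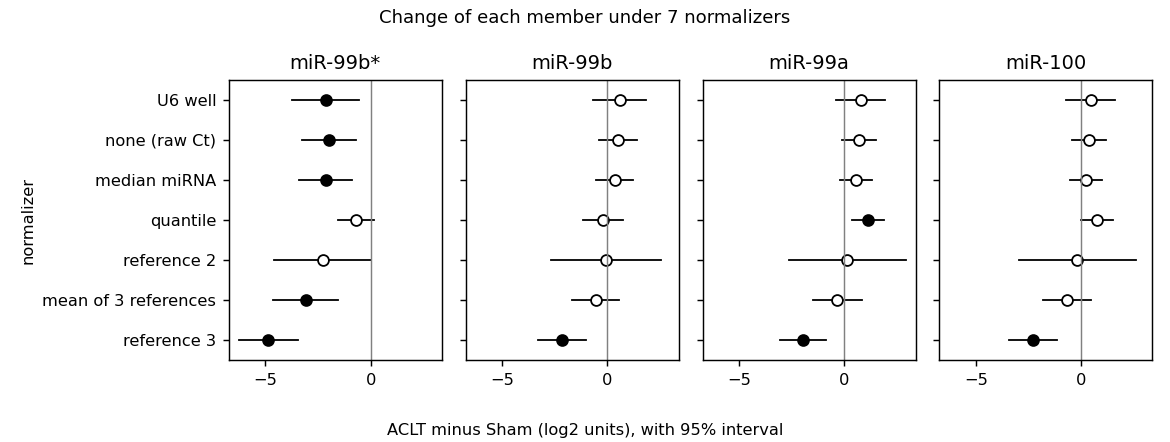
ACLT minus Sham change in log2 units (horizontal axis) of each member under 7 normalizers (vertical axis); points are limma estimates with 95% intervals, filled where the adjusted p is under 0.05. The miR-99b* estimates are all negative, from -0.70 to -4.85, and those of the 3 guide strands lie on both sides of 0.

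Within the seed family miR-99b made up most of the signal. As a share of the summed amounts relative to U6, miR-99b had 93.1%, 76.8% and 76.5% in ACLT samples 1 to 3, against 85.4%, 84.0% and 83.3% in Sham samples 1 to 3. The Sham values lay close together and ACLT lay on both sides of them. All 3 guides share 1 factor between samples 2 and 3 of a group. The sample 3 shares therefore nearly repeat those of sample 2, and the SD and p that follow count them as separate. The ACLT mean was 82.1% ± 9.5 and the Sham mean 84.2% ± 1.0 (SD, n = 3 per group; exact permutation p = 1, two-sided). miR-99a had 8.97% ± 4.75 in ACLT and 6.97% ± 0.63 in Sham, and miR-100 had 8.89% ± 4.74 and 8.81% ± 1.62 in the same order. The family sum was 3.05, 0.836 and 1.68 times U6 in ACLT, against 0.720, 1.22 and 1.35 times U6 in Sham (exact permutation p = 0.4, two-sided). The shares assume equal efficiency of the 3 assays. RNA was measured over all sorted cells, so fewer cells that carry a miRNA and less of it per cell cannot be told apart.

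The 2 arms of miR-99b lay farther apart in ACLT. The guide exceeded the passenger by 10.3, 9.43 and 8.96 log2 units in ACLT samples 1 to 3, against 5.83, 6.51 and 8.26 in Sham samples 1 to 3. The groups did not overlap, and the highest Sham value came within 1 unit of the lowest ACLT value. The mean gap in ACLT was 9.58 ± 0.70, against 6.87 ± 1.25 in Sham (SD, n = 3 per group). The ACLT gap rests on passenger Ct values near or past 35, so its size is less certain than that of Sham. The difference of 2.71 log2 units had an exact permutation p = 0.1 (two-sided, the smallest possible; 0.2 adjusted over the 6 pairs of members). Most of it is the passenger's change of -2.14, to which the guide's change of 0.58 adds. After quantile normalization the difference between ACLT and Sham was 0.50 (exact permutation p = 0.3, two-sided). On raw Ct, with no normalizer, the gap was 9.30 ± 0.84 cycles in ACLT and 6.83 ± 0.80 cycles in Sham. The guide lies on plate 1 and the passenger on plate 2, so the ΔCt gap uses a different U6 well for each arm.

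In 2 other precursors both arms had a value. miR-106b, a guide of the miR-106b/25 cluster, exceeded miR-106b* by 10.4, 9.54 and 9.96 log2 units in ACLT, against 6.14, 7.87 and 9.65 in Sham (exact permutation p = 0.2, two-sided). The groups overlapped, and Sham sample 3 was again the Sham value nearest to ACLT. On raw Ct the miR-106b gap did not overlap, at 10.2, 9.51 and 9.42 cycles in ACLT, against 6.61, 7.79 and 9.14 cycles in Sham (exact permutation p = 0.1, two-sided), the same p as the raw gap of miR-99b. miR-106b* stands next to miR-99b* in plate order among the miRNAs with a value, and it was not tested because its Ct reached 35 in both groups. The 2 arms of miR-423, both on plate 1, differed by 0.22 ± 0.32 log2 units in ACLT and 0.63 ± 0.56 in Sham (exact permutation p = 0.3, two-sided). A mean gap that was wider in ACLT was thus measured for miR-106b as well as miR-99b, and the difference between the precursors was not tested.

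**Figure D5:**
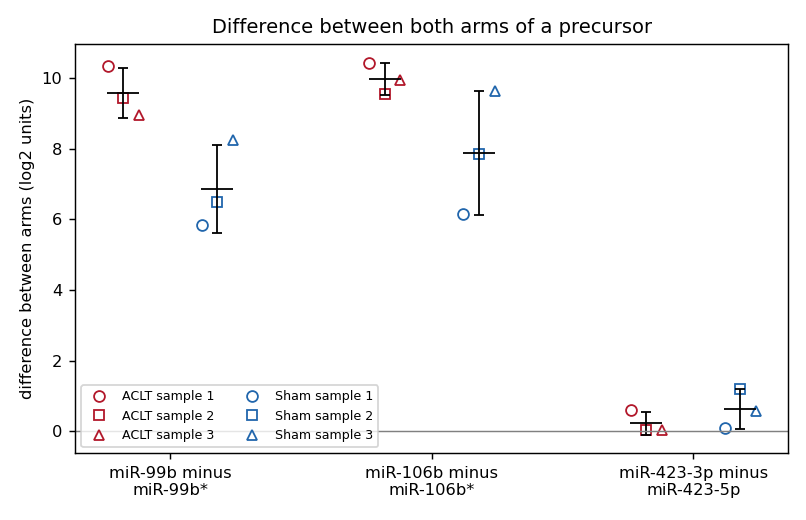
Difference between the 2 arms of a precursor in log2 units relative to U6 (vertical axis) for miR-99b, miR-106b and miR-423 (horizontal axis), in 3 ACLT (red) and 3 Sham (blue) samples with mean ± SD. The miR-99b gap is 8.96 to 10.3 in ACLT and 5.83 to 8.26 in Sham, and the miR-106b gap 9.54 to 10.4 in ACLT and 6.14 to 9.65 in Sham.

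miR-99a and miR-100, which differ at the single base given above, were read at nearly the same Ct. Their Ct differed by 0.031, 0.011 and 0.010 cycles in ACLT samples 1 to 3, against 0.144, 0.563 and 0.551 cycles in Sham samples 1 to 3. Of the 5253 pairs of miRNAs, 11 (0.209%) lay within 0.031 cycles of each other in all 3 ACLT samples. That limit is the largest ACLT difference of miR-99a and miR-100, so this pair is among the 11 by construction and the share is no test of it. Both wells are on the factor in both groups, so their difference in sample 3 is that of sample 2 rescaled. Pairs were not counted in Sham, where this pair lay farther apart. The sign was not constant either: miR-99a had the lower Ct in the 3 ACLT samples and in Sham sample 1, and the higher Ct in Sham samples 2 and 3. How far the 2 assays read each other's target was not tested. As their wells are also near each other on the rising band of the plate, sequence likeness and place cannot be told apart.

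The same closeness appeared between miRNAs that share no family. By the correlation of levels over the 6 samples, which share normalizer and tie and are given with no p, the miRNA most like miR-99b was miR-106b (Pearson r = 1.00), then miR-98 (0.990) and miR-126-3p (0.906). The Ct of miR-106b exceeded that of miR-99b by 0.026, 0.029 and 0.029 cycles in ACLT, against 0.060, 0.054 and 0.053 in Sham. miR-98, miR-99b, miR-106b, miR-126-3p and miR-142-5p, 5 wells picked after their values were seen, had rising Ct in plate order in all 6 samples. Between samples 2 and 3 of a group all 5 were multiplied by the same factor, which keeps their order. Sample 3 of each group is thus no separate case. The miRNA most like miR-100 was the liver miRNA miR-122 (r = 0.998), whose Ct was higher by 0.004 to 0.040 cycles in ACLT and by 0.092 to 0.108 cycles in Sham. It was followed by miR-291b-5p (0.967) and miR-218 (0.962). Most like miR-99a were miR-378 (0.960), miR-297a (0.951) and miR-30d (0.937); miR-378 and miR-30d were higher in ACLT, by 2.09 and 2.93 (limma adjusted p = 0.00571 and 6.91e-05). The correlation takes in the difference between ACLT and Sham, so the direction of miRNAs picked by it is not separate support for a member's change. miR-99b* was most like miR-203 (0.917), miR-192 (0.873) and miR-186 (0.865). They were all lower in ACLT, by log2 changes of -1.56, -1.72 and -1.71 (limma adjusted p = 0.0465, 0.0275 and 0.0275).

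The tested miRNAs next to miR-99b* by mean Ct (34.2) were, on the lower side, miR-1839-5p at 32.1 and miR-1198 at 31.9, with changes of 0.06 and -0.06. On the higher side they were miR-22* at 34.4 and miR-676* at 34.4, with changes of -0.80 and -1.84. None of these 4 passed (limma adjusted p of 0.112 or more). The miRNAs beside the guides by mean Ct had changes on both sides of 0, and miR-186 and miR-185, both lower, were the 2 of 12 that passed. Over all tested miRNAs, 20 of 100 (20%) passed in either direction, a similar share. miR-183 and miR-98 just below miR-99b stood at 1.11 and 0.84, and miR-106b and let-7d just above it at 0.60 and 0.48. Around miR-99a, miR-134, miR-143 and miR-27b stood at -0.73, -0.67 and 0.48, while miR-186 fell. Around miR-100, miR-24, miR-26a and miR-93 stood at 0.15, 0.18 and 0.77, while miR-185 fell by 2.02 on the log2 scale (limma adjusted p = 0.00571).

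The genes of the family lie in 3 clusters, and the other miRNAs of these clusters were read on the same panel. In GRCm38.p6 the mature let-7e starts 172 bases and miR-125a-5p 623 bases after miR-99b; let-7c starts 732 bases after miR-99a and miR-125b-5p 47339 bases; let-7a-2 and miR-125b-1 follow miR-100. Of the 3 let-7 partners, which repress growth genes such as Ras and Hmga2, 0 of 3 passed. let-7e, whose single gene makes it the cleanest partner, had levels of -2.66, -2.42 and -1.40 in ACLT, against -3.87, -2.46 and -3.56 in Sham, and the groups overlapped, with a change of 1.14 ± 0.60 (SE; limma adjusted p = 0.188). let-7a stood at 1.18 ± 0.54 (adjusted p = 0.122) and let-7c at 0.48 ± 0.56 (limma adjusted p = 0.605), and both also come from other genes. All 5 assays of miR-125 on the panel, for miR-125a and miR-125b with both arms, had no Ct in any sample. let-7e was thus read in all samples and miR-125a in none, and both lie within 1 kb of miR-99b. Over the whole panel, 103 of 707 assays had a value in all 6 samples, so an assay with no Ct was the usual case.

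Lists of miRNAs of other marrow and joint cells were also read. Of the first, 2 of 5 osteoclast and myeloid miRNAs had a Ct (miR-21 and miR-142-5p), and miR-223, miR-142-3p and miR-155 had none. These 3 thus do not bear the label out, but a missing Ct was common, as 103 of 707 assays of the panel had a value in all 6 samples. The messenger RNAs of OSCAR and CTR were not measured. The summed level of the 2 was 51.0 to 76.0 times U6 in ACLT, against 2.88 to 4.43 in Sham. miR-21 carried that difference, with a Ct of 19.712 to 21.229 in ACLT, against 24.1 to 25.2 in Sham, and the Ct of miR-142-5p overlapped between the groups. The 4 of 4 mesenchymal miRNAs with a Ct summed to 37.4 to 51.4 in ACLT, against 4.65 to 6.87 in Sham. Of the 4, 3 passed as higher, as did 13 of all 100 tested miRNAs (13%). The other, miR-143, had a negative change that did not pass (-0.67, limma adjusted p = 0.504). The 4 of 6 epithelial ones with a value summed to 12.9 to 22.8 in ACLT, against 3.04 to 4.56 in Sham, but 2 of them passed as higher and 2, miR-203 and miR-205, as lower. The 3 of 3 erythroid miRNAs summed to 0.517 to 0.991 in ACLT, against 0.328 to 0.519 in Sham. For the 3 of 3 lymphoid ones the sums were 0.969 to 3.97 in ACLT, against 0.763 to 1.76 in Sham. Of 2 endothelial miRNAs miR-126-3p alone had a Ct, and of 4 muscle miRNAs miR-206 alone, with levels that overlapped between the groups. The part of these cells in the values of the miR-99/100 family was not tested.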

How the data were processed

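Ct was measured by SYBR Green real-time PCR after QuantiMir reverse transcription of Trizol RNA on a ViiA7 over 40 cycles, per the labels' protocols. The authors deposited raw Ct (a score in cycles), ΔCt on a log2 scale, which equals raw Ct minus the U6 well of the same sample and plate, and a ratio of ACLT to Sham, per the file headers. Threshold settings remain not given in the sources used here. Of 719 wells listed, 110 had a Ct, 6 of them reference wells; 2 emptied ΔCt lines are not analysed here. An array of this kind has no read depth, and the 3 samples a group limit the precision. The test took miRNAs with every Ct of ACLT, or every Ct of Sham, under 35 (100 of 103). Groups were fitted by limma 3.58.1 under R 4.3.3 (eBayes with a trend, two-sided, Benjamini-Hochberg over all 100, threshold 0.05). The code was run on simulated independent values with a common SD. These held neither the tie nor the shared normalizer, so that run does not show how often the fit calls falsely in these data. The fit pooled the spread over all miRNAs (400 degrees of freedom), although wells share cells and normalizer and the third sample is tied to the second. Single values were compared by exact two-sided permutation over samples. Runs of rising Ct are the longest sets of wells, not necessarily adjacent, whose Ct increases in plate order. The miRNAs named are the 4 members, their cluster partners, the 3 most correlated miRNAs of each member, the 2 nearest by mean Ct on each side, the arms of other precursors and the reference assays; the members and lists were chosen with earlier results of these data known. Replicate numbers came from the labels. Python 3.11.15, numpy 2.4.6, pandas 2.3.3 and matplotlib 3.10.9 were used. Sequences and gene neighbours are from RefSeq (GRCm38.p6).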

Additional observations from a re-analysis of the deposited data

How the results depend on the processing

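Of the 19 alternatives that gave miR-99b* a value, 11 put its adjusted p above 0.05, and its change was negative in all 19. It was -0.70 after quantile normalization, -2.26 against reference 2, -2.14 under the replicate block (limma adjusted p = 0.161), -2.18 when samples 2 and 3 of a group were averaged (adjusted p = 0.108), -2.95 on samples 1 and 2 alone, and -1.75 with Ct over 35 set to 35, an alternative chosen after seeing the data. Leaving out each sample gave -2.66 to -1.69, with limma adjusted p from 0.0261 (without Sham sample 3) to 0.304 (without ACLT sample 2). A limit of Ct 32, or of 35 in all 6 samples, left it untested, and no filter gave an adjusted p of 0.0316. miR-99b turned to -0.20 after quantile normalization, -0.067 against reference 2, -2.16 against reference 3 and -0.55 against the references' mean, and lay between 0.03 and 1.10 without each sample. miR-99a passed after quantile normalization (1.13) and turned to -1.95 against reference 3 and -0.34 against the references' mean. miR-100 turned to -0.19, -2.29 and -0.68 against reference 2, reference 3 and the references' mean. Without each sample, miR-99a lay between 0.47 and 0.98 and miR-100 between 0.01 and 0.72.

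Against 13 higher miRNAs in limma, reference 2 gave 0 (2 at an unadjusted p under 0.05), reference 3 gave 1, the references' mean 6, samples 1 and 2 alone 3, and leaving out each sample 11 to 14. Against 7 lower miRNAs, median centring gave 18, quantile normalization 14, raw Ct 12, reference 3 gave 87, the references' mean 34 and the replicate block 1. There were 0 lower against reference 2 (0 at an unadjusted p under 0.05), 0 when samples 2 and 3 were averaged (4 unadjusted) and 0 on samples 1 and 2 alone (5 unadjusted). Leaving out each sample gave 0 (without ACLT sample 2) to 16 (without Sham sample 1) lower. The cause was not tested. The arm difference of 2.71 stayed positive in all 11 alternatives, at 0.50 after quantile normalization and from 2.19 to 3.41 without each sample. Same-numbered samples of the groups correlated at 0.245, 0.056 and 0.066 in their deviations from the group means. Differently numbered ones correlated at -0.222 to 0.220. With 3 samples a group, these values cannot decide whether the numbers pair the samples. Under the replicate block miR-99b* lost its call, and no other member's call changed. The Ct values themselves limit every result: samples 2 and 3 are tied in most wells, and Ct rises along plate order in bands. The longest rising run of a sample held 29 to 49 of 103 miRNAs. A search for single outlying samples needs groups of 4.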
